A study of Mus musculus with 6 samples.

Results

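RNA polymerase subunits and ribosome biogenesis genes were followed in neuralized embryoid bodies, floating clumps of mouse stem cells that differentiate towards neural fates. The members were chosen by gene symbol: subunits named Polr1, Polr2 or Polr3, genes named Rrp, Nop or Utp with a number, and Fbl, Ncl, Npm1, Dkc1, Nolc1, Bop1, Pes1 and Wdr12. The choice was made with earlier results of these data known, so shares over the members are descriptions and no independent support. This gave 60 genes of the 18193 with a single platform symbol, 25 of them polymerase subunits and 35 ribosome biogenesis genes. Where a gene had several probe sets, the one with the highest mean intensity over the 6 arrays stood for it, so that mean was used in the choice and is given only as a description. Polr2k and Polr2l share a probe set with another gene symbol and were left out by the rule.

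The RA_Ag1.3 group had 3 cultures given 500 nM all-trans retinoic acid and 50 nM Ag1.3, an agonist of Smoothened, for 3 days. The RA group had 3 cultures given 500 nM all-trans retinoic acid alone for 3 days. All 6 cultures came from 1 stem cell line in which the Rosa26 promoter drives a Gli1-FLAG transgene, so the RA controls carried Gli1-FLAG as well, and all had spent 2 days in suspension before treatment. The series' design text describes the cultures as paired, 1 of each group grown in parallel, and RNA of each was read on 1 Affymetrix array. Deposited probe set intensities had medians of 48.8 to 52.7 per array, and no value is a count. RNA was taken from whole aggregates, so a change in the mix of cells and a change in RNA per cell cannot be told apart.

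Ribosomes are built in the nucleolus, where RNA polymerase I transcribes the large ribosomal RNA precursor. Polymerase III makes 5S ribosomal RNA and transfer RNAs, and polymerase II transcribes the genes of ribosomal proteins and assembly factors. The precursor is modified by small nucleolar ribonucleoproteins (snoRNPs), cut and folded by the small subunit processome, and matured by large subunit assembly factors. Growing and dividing stem and progenitor cells make many ribosomes, and transcription factors of the Myc family, which bind the E-box, are known activators of this programme.

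With Ag1.3 the members read slightly lower as a set, and no single gene passed the test. The median log2 fold change over the 60 members was -0.11, which is a difference of -7.37%, against a median of -0.01 over all 18193 genes. Members with a value below 0 numbered 53, or 88.3% of them, while 52% of all genes and 54.1% of the 11441 genes above the median probe set lay below 0. In limma's paired test with Benjamini-Hochberg adjustment over all genes, 0 of 60 members passed the threshold of 0.05, while 1.41% of all genes did, 1.08% higher and 0.324% lower with Ag1.3. At an unadjusted p under 0.05 there were 9 members, all lower with Ag1.3, which is 15% of the members against a background of 14.9% in either direction, 7.68% lower and 7.25% higher. Without the pairing in the fit, 0 members passed the adjusted threshold, against 0.478% of all genes. At an unadjusted p under 0.05 that fit had 3 members, all lower, or 5% against 7.42%. Counted in either direction, the members' share at an unadjusted p under 0.05 was close to the background.

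The members' fold changes were small and fairly precise. They ran from -0.24 for Rrp9 to 0.09 for Polr3gl on the log2(intensity + 16) scale, with a median standard error of 0.08. The 95% interval of every member lay between -0.48 and 0.40, so for each of the 60 genes a difference beyond 0.5 on the log2 scale, which is 29.3% lower or 41.4% higher, fell outside its interval. These bounds hold for the deposited scaling, and with arrays shifted to equal hybridization spikes the value of Rrp9 was -0.43. For 9 genes the interval, not adjusted for the number of genes, left out 0. Adjusted p ranged from 0.251 to 0.971.

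**Figure D1:**
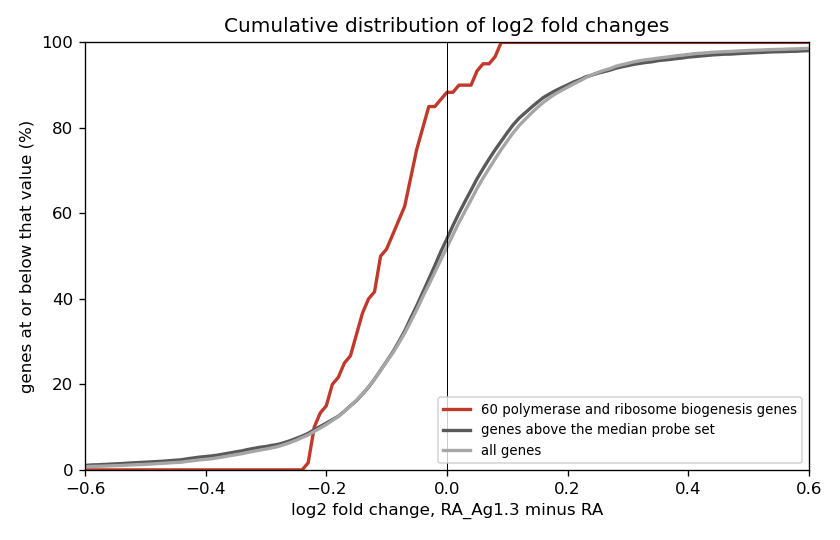
Cumulative share of genes (y axis, percent) at or below each log2 fold change of RA_Ag1.3 over RA (x axis, log2(intensity + 16)) for the 60 members, for the 11441 genes whose intensity lay above the median probe set, and for all 18193 genes. The members' curve is steeper and lies left of the others above a the lowest members' values, with 88.3% of members below 0 against 52% of all genes.

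The direction was shared by the pairs of cultures. Members read lower with Ag1.3 in 50 of 60 cases in pair 1, 47 in pair 2 and 43 in pair 3, with medians of -0.11, -0.13 and -0.08. The medians over all genes in the same pairs were -0.01, -0.04 and 0.02, and relative to them the members lay at -0.10, -0.09 and -0.10. Lower values in all 3 pairs were found for 31 members (51.7%), against 19.5% of all genes and 23.3% of the 11441 genes above the median probe set. Polr2g and Polr3d were the 2 members higher in all 3 pairs, against 17.2% of all genes. The RA_Ag1.3 arrays all read below the RA arrays for 10 members, which is 16.7% against a background of 5.37% of all genes and 6.07% of genes above the median probe set, and all above them for Polr3d alone, against a background of 6.44%. These counts describe genes that vary together across the same 6 arrays and carry no test of the set.

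**Figure D2:**
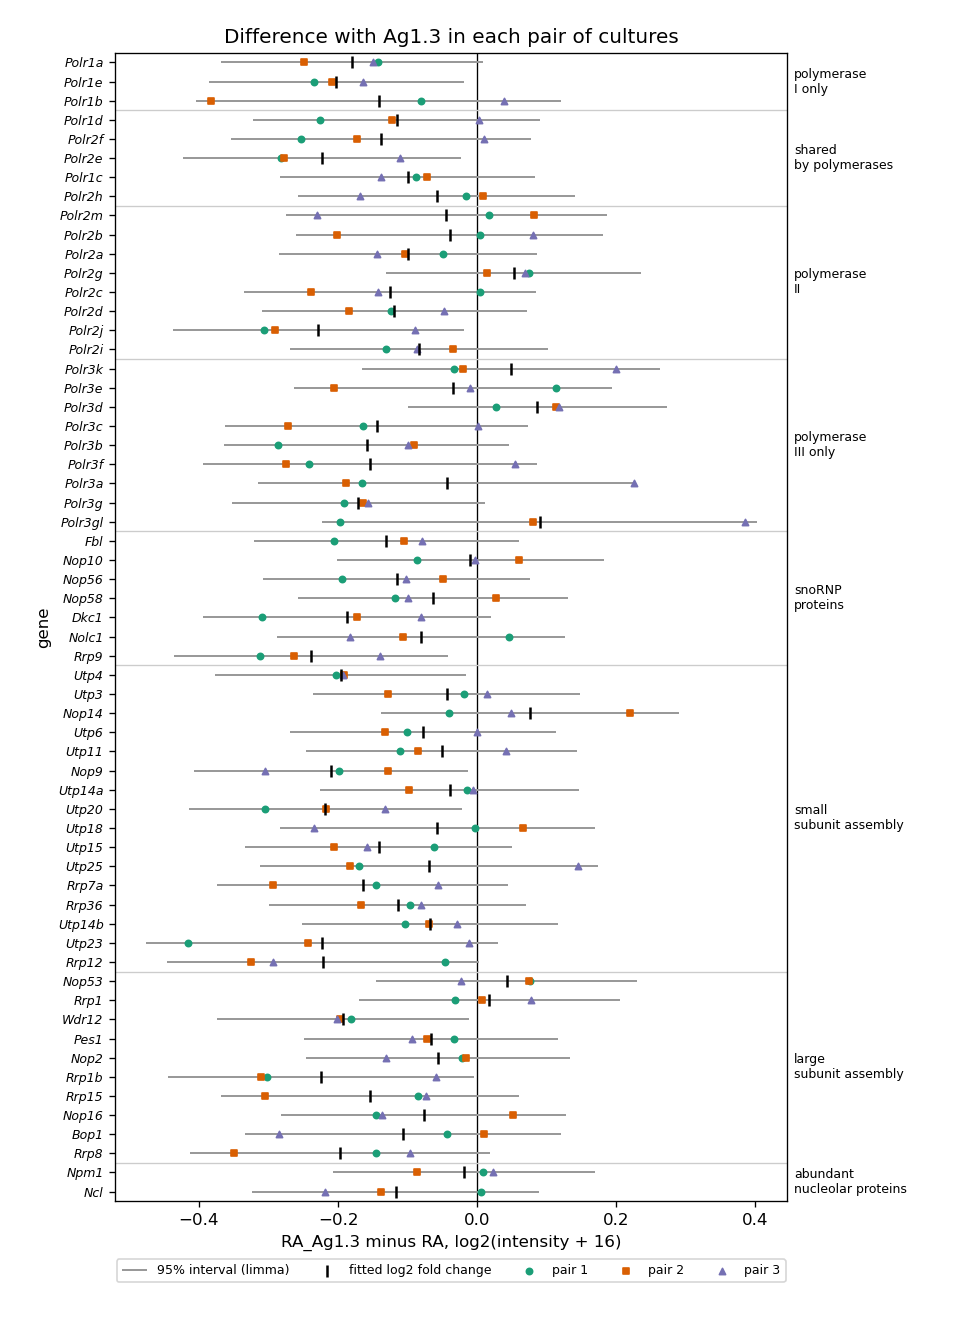
Difference of RA_Ag1.3 minus RA for each member (y axis, grouped by role) on the log2(intensity + 16) scale (x axis). Coloured points are the 3 pairs of cultures, black ticks the fitted log2 fold change and grey lines its 95% interval, and most ticks lie between -0.24 and 0.

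Upstream sequences are shown for 4 members to set beside their values: Rrp9, which had the lowest fold change, Ncl, the nucleolar protein nucleolin, and the paralogs Polr3g and Polr3gl, whose values had opposite signs. Each is the 250 bases before the RefSeq gene start in GRCm38.p6, 5′ to 3′ on the gene's strand. Rrp9 lies at chr9:106477059-106477308 on the plus strand, Ncl at chr1:86359456-86359705, Polr3g at chr13:81711014-81711263 and Polr3gl at chr3:96594182-96594431, these 3 on the minus strand. Capitals mark matches to CACGTG (E-box), CCAAT or GGGCGG (GC box) on either strand, none overlapping another in these 4 windows.
Rrp9: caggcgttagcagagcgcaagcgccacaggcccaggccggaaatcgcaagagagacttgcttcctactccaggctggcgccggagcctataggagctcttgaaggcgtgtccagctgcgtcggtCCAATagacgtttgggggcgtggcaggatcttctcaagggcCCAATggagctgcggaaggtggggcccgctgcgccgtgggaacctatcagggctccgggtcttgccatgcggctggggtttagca
Ncl: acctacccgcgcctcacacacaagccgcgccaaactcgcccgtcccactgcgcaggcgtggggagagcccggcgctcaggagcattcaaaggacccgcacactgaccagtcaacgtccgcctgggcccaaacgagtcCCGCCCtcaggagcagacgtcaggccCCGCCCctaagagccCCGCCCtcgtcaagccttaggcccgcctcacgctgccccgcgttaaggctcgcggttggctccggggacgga
Polr3g: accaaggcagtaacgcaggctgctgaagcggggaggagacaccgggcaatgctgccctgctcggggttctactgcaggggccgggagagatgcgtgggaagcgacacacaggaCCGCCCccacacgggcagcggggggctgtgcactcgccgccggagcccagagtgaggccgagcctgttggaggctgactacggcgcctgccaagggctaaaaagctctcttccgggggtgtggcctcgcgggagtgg
Polr3gl: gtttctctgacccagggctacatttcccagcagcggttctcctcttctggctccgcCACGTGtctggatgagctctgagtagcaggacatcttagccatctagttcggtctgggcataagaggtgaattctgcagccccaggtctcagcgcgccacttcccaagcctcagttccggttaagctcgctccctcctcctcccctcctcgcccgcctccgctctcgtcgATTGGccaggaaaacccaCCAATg
Rrp9 holds CCAAT at 2 places and Ncl the GC box at 3. Polr3g holds 1 GC box, whereas Polr3gl holds the E-box and CCAAT in both orientations.

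RefSeq windows were matched for 48 of the 60 members, 57 windows in all because some genes have several starts. The E-box was found in 7 of the 57 windows (12.3%), against 6.02% of 32851 windows of the same length. GGGCGG was in 59.6% of the members' windows and 32.7% of all, and CCAAT in 29.8% and 33.8%. The palindromic motif of the factor NRF1, and AAGATGGCG, that of YY1, were in 0 of the 57 windows and in 0.782% and 0.606% of all. The members' windows had a median GC content of 59.2%, against 52.4% for all windows, and a median of 14 places where G follows C, against 6. The GC box consists of G and C, and the E-box holds such a place, so their shares were not separated from base composition. A match is a run of letters and was not measured as a bound site.

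Among subunits found in RNA polymerase I alone, Polr1a, the largest and catalytic subunit, read 317, 294 and 311 in RA_Ag1.3 replicates 1 to 3, against 352, 352 and 346 in RA replicates 1 to 3. The groups did not overlap, and RA arrays lay close together at 350.1 ± 3.24 (SD, n = 3). Its log2 fold change was -0.18 with SE 0.08 and adjusted p = 0.352 in limma's test. The 4 other Polr1a probe sets did not share 1 sign, the brightest of them lying at 0.07 and the others at -0.08 to -0.17, and the mean of its probe sets gave -0.10. Polr1b, the second-largest subunit, read 151, 138 and 157 with Ag1.3, against 161, 185 and 152 in RA. The groups overlapped for Polr1b and pair 3 had the opposite sign, and the fitted difference was -0.14 with adjusted p = 0.612. Polr1e, an accessory subunit, was at -0.20. All 3 genes were below 0 and 2 were lower in all 3 pairs. For this and the following role groups, 52% of all genes lay below 0 and 19.5% were lower in all 3 pairs.

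Subunits that more than one polymerase contains had 5 of 5 values below 0, with a median of -0.12. Polr2e, present in all 3 enzymes, read 739, 801 and 924 with Ag1.3, against 902, 975 and 999 in RA. Only the Ag1.3 array of pair 3 reached into the range of the RA arrays. The log2 fold change was -0.22 with SE 0.08, 95% interval -0.42 to -0.02 and adjusted p = 0.285. Polr1d, which polymerases I and III share, read 1376, 1456 and 1647 with Ag1.3, against 1612, 1586 and 1645 in RA, so that pair 3 was level and pairs 1 and 2 were lower. Its 3 other probe sets gave -0.17, -0.23 and -0.16, beside -0.12 for the chosen one.

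Of 8 genes of polymerase II, 7 lay below 0 with a median over the 8 of -0.09. Polr2a, the largest subunit, whose tail binds RNA processing factors, read 919, 890.1 and 951 with Ag1.3, against 952, 958 and 1053 in RA. Those groups are separated by a margin of under 1 intensity unit, since the highest Ag1.3 array read 951.23 and the lowest RA array 951.53. The dimmer Polr2a probe set was at 0.02, and the mean of both gave -0.04. Polr2b, the second-largest subunit, read 1086, 1069 and 1104 with Ag1.3, against 1083, 1232 and 1044 in RA. Here the pairs disagreed in sign, and the log2 fold change was -0.04 with adjusted p = 0.884.

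Polr2j, a small subunit of the assembly platform of polymerase II, had the lowest fold change among these genes. It read 666, 619.99 and 684 with Ag1.3, against 827, 762 and 729 in RA. All Ag1.3 arrays were below all RA arrays, and the log2 fold change was -0.23 with SE 0.08, 95% interval -0.44 to -0.02 and adjusted p = 0.294. Polr2g, part of the stalk of the enzyme, read 950.2, 897 and 929 with Ag1.3, against 902, 888 and 884 in RA. It was higher in all 3 pairs, by 0.05 on the log2 scale with adjusted p = 0.805. Polr2m, a protein that associates with polymerase II and restrains it, is not a core subunit and read -0.04.

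Polymerase III genes were the most mixed, with 6 of 9 below 0, against 52% of all genes, and a median of -0.04. Their pair medians were -0.17, -0.16 and 0.05. Polr3a, the largest subunit, read 152, 152 and 200.3 with Ag1.3, against 173, 176 and 169 in RA. The third pair alone was higher with Ag1.3, and the fold change of -0.04 had adjusted p = 0.900. Its sign was not stable, since the mean of its probe sets gave 0.03 and the fits without replicate 1 or 2 gave 0.02 and 0.03. The mean of its probe sets includes a dim one, of mean intensity 19.5, at 0.14. Polr3b, the second-largest subunit, read 174, 182 and 214 with Ag1.3, against 216, 195 and 230.3 in RA, with -0.16 and adjusted p = 0.451. Its other probe sets gave -0.32 and 0.02.

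Polr3d, a subunit that takes part in initiation and termination, read 223, 222 and 229.9 with Ag1.3, against 219, 204 and 211 in RA. It was the single member whose Ag1.3 arrays all exceeded the RA arrays, by 0.09 in log2 units (SE 0.07, adjusted p = 0.667). A dimmer Polr3d probe set lay at -0.01, and the mean of both gave 0.04. Polr3k, a small subunit that cleaves RNA in the enzyme, read 449.6, 367 and 326 with Ag1.3, against 460.4, 373 and 282 in RA. Replicate 1 was highest and replicate 3 lowest in both groups, so the spread between pairs was larger than the fold change of 0.05. Of its other 5 probe sets, those with mean intensities of 197 to 368 gave 0.07 to 0.12.

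Polr3g and Polr3gl encode alternative forms of 1 subunit, and Polr3g is known for its expression in pluripotent stem cells. Polr3g read 134, 139 and 159.9 with Ag1.3, against 155, 157 and 180.2 in RA. It was lower in all 3 pairs, with differences of -0.19, -0.16 and -0.16, while the groups overlapped because pair 3 was highest in both. The log2 fold change was -0.17 with SE 0.07, 95% interval -0.35 to 0.01 and adjusted p = 0.361. Polr3gl read 90.3, 82.9 and 88.7 with Ag1.3, against 105.9, 77.5 and 64.2 in RA. Its pair differences were -0.20, 0.08 and 0.39, which is no common direction, and the fitted 0.09 had an interval of -0.22 to 0.40 and adjusted p = 0.805.

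**Figure D3:**
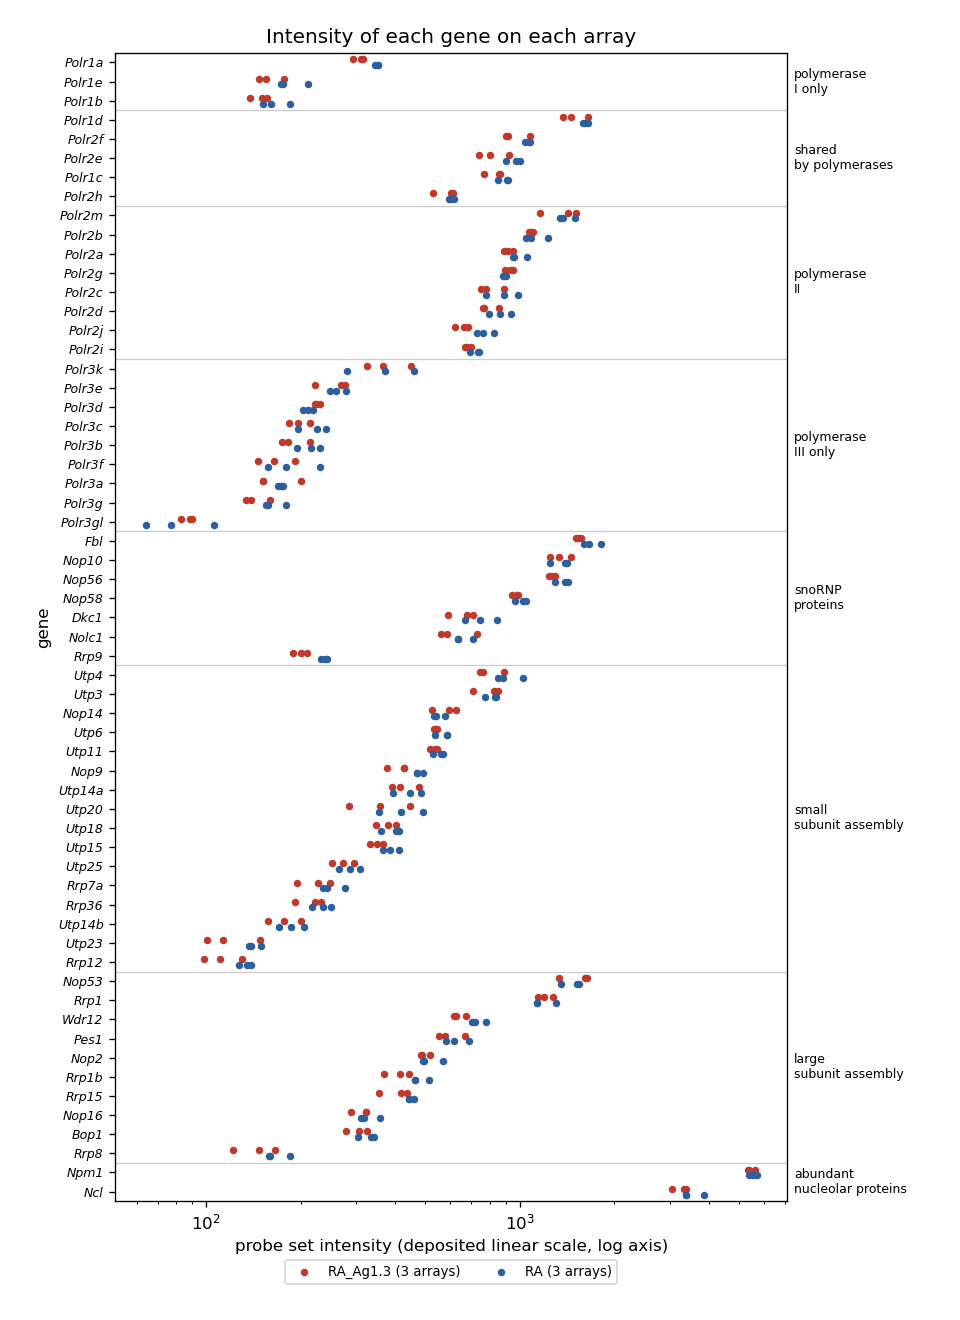
Deposited probe set intensity (x axis, log scale) of each member (y axis, grouped by role) on the 3 RA_Ag1.3 arrays and the 3 RA arrays. The RA_Ag1.3 points lie left of all RA points for 10 genes, among them Rrp9 and Polr1a, and overlap them for most others, and intensities of different probe sets are not comparable as transcript levels.

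The snoRNP proteins had 7 of 7 values below 0, with a median of -0.12. Rrp9, which binds the U3 small nucleolar RNA, read 189, 200.2 and 209.5 with Ag1.3, against 239, 243.5 and 232 in RA. All Ag1.3 arrays were below all RA arrays, and its values averaged 199.6 ± 10.3 with Ag1.3 and 238 ± 5.52 in RA (SD, n = 3 each). The log2 fold change of -0.24 had SE 0.08, 95% interval -0.44 to -0.04 and adjusted p = 0.251, the smallest among the members. Fbl, fibrillarin, the methyltransferase of the box C/D particles, read 1566, 1536 and 1508 with Ag1.3, against 1809, 1654 and 1595 in RA.

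The Fbl groups did not overlap, and its log2 fold change was -0.13 with adjusted p = 0.506. Its other probe set was at -0.15 with overlapping groups. Nop56, a core protein of the same particles, also had separate groups, at -0.12, while its other probe set was at -0.10 with overlapping groups. Dkc1, dyskerin, the pseudouridine synthase of the box H/ACA particles, read 677, 592 and 707 with Ag1.3, against 843, 669 and 748 in RA. It was lower in all 3 pairs with overlapping groups, a fitted value of -0.19 and adjusted p = 0.380, and its other probe sets gave -0.23 and -0.16. Nop10, another box H/ACA protein, was near 0 at -0.01. Nolc1, a chaperone of snoRNPs, read 732, 587 and 559 with Ag1.3, against 708, 633 and 637 in RA, and pair 1 differed in sign from the others.

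Of 16 genes of small subunit assembly, 15 lay below 0 and 11 were lower in all 3 pairs, with a median of -0.10. Over all genes these shares were 52% and 19.5%, and 54.1% and 23.3% above the median probe set. Utp20, a large scaffold protein of the processome, read 285, 357 and 445 with Ag1.3, against 356, 418 and 489.7 in RA. It was lower in each pair while replicate 3 was highest in both groups, so the groups overlapped. The log2 fold change of -0.22 had SE 0.08, 95% interval -0.41 to -0.02 and adjusted p = 0.285. Nop9, an RNA-binding protein of pre-40S particles, read 427, 428 and 377 with Ag1.3, against 492, 469.6 and 469.9 in RA, with no overlap, at -0.21 with adjusted p = 0.303.

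Utp23, a processome protein, read 100.3, 113 and 148 with Ag1.3, against 139, 137 and 149.7 in RA. Its log2 fold change of -0.22 had adjusted p = 0.391, and its 3 other probe sets gave 0.03, 0.03 and -0.06, so the value of -0.22 belongs to 1 of 4 probe sets, whose mean gave -0.05. Rrp12, which serves export of pre-ribosomal subunits, read 130.5, 98.1 and 110.7 with Ag1.3, against 135, 127 and 139 in RA, at -0.22 with adjusted p = 0.341. Utp14a was at -0.04, beside 0.03 for its dimmer probe set, and its retrogene copy Utp14b, which mice need for spermatogenesis, was at -0.07. Nop14 was the 1 member of this group above 0, at 0.08, with pair differences of -0.04, 0.22 and 0.05.

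Of 10 genes of large subunit assembly, 8 lay below 0 with a median of -0.09. Bop1, Pes1 and Wdr12 form 1 complex that matures the large subunit. Wdr12 read 617, 623 and 675 with Ag1.3, against 702, 717 and 778 in RA. The groups did not overlap and the pairs were alike at -0.18, -0.20 and -0.20, and the fit gave -0.19 (SE 0.07, adjusted p = 0.304). Its partner Bop1 was at -0.11 with adjusted p = 0.664 and at -0.02 without replicate 3, and Pes1 was at -0.07 with adjusted p = 0.745. The order of these 3 genes depended on the probe sets, since the mean of each gene's probe sets gave -0.22 for Bop1, -0.09 for Pes1 and -0.06 for Wdr12. Dim probe sets count equally in those means. The other Bop1 probe set, of mean intensity 37.5, was at -0.34. A Wdr12 probe set of mean intensity 4.92, under the brightest unspiked control value of 20.7, was at 0.15. The remaining one, of 68.9, was at -0.14 with overlapping groups. The differences between the partners were not tested.

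Rrp1b, a nucleolar protein of pre-60S particles, read 414, 369 and 443 with Ag1.3, against 515, 462.3 and 462.2 in RA. Its groups did not overlap, and the log2 fold change of -0.22 had SE 0.09 and adjusted p = 0.325. The other probe sets gave -0.20 and -0.09, and on both the groups overlapped. Its paralog Rrp1 read 1276, 1141 and 1193 with Ag1.3, against 1305, 1136 and 1129 in RA, at 0.02 with adjusted p = 0.946, beside -0.05 for its other probe set. Rrp8, a methyltransferase of large subunit ribosomal RNA, was at -0.20 and lower in all 3 pairs with overlapping groups, adjusted p = 0.373. Nop53, which helps to process the large subunit precursor, was above 0 at 0.04, and its other probe sets gave 0.09 and -0.04.

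The 2 abundant nucleolar proteins differed in how far they lay from 0. Npm1, nucleophosmin, a histone and ribosome chaperone, read 5385, 5347 and 5632 with Ag1.3, against 5354, 5681 and 5545 in RA. The groups overlapped, and the log2 fold change of -0.02 had an interval of -0.21 to 0.17 and adjusted p = 0.941. A further Npm1 probe set of mean intensity 5333 gave -0.09, with 5124, 5247 and 5149 with Ag1.3, against 5544, 5477 and 5460.1 in RA, and on that probe set the groups did not overlap. Ncl, nucleolin, which acts in early precursor processing, read 3387, 3060.5 and 3324 with Ag1.3, against 3374, 3370.2 and 3869 in RA, at -0.12 with adjusted p = 0.591. Its 4 other probe sets all lay below 0, from -0.15 to -0.33, and the mean of its probe sets gave -0.21.

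Probe sets that the choice left out, read on the same arrays, also lay below 0 more often than the background, at a smaller share than the 88.3% of the chosen ones. The 36 members with more than 1 probe set had 65 further ones, with a median of -0.08. Of these 45 lay below 0, or 69.2%, against 53.1% of the 16752 left-out probe sets of all genes, and 19 had the sign opposite to the chosen probe set. Above the median probe set there were 47, of which 35 lay below 0, or 74.5% against 55%. At an unadjusted p under 0.05 in limma's fit over all probe sets there were 10 of 65, or 15.4% against a background of 12.8%, and 9 of them were lower with Ag1.3, or 13.8% against 6.73%. These shares are descriptions, and probe sets of 1 gene share their transcript.

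For most members the range over the RA arrays was larger than the fold change. The range runs over 3 single arrays and the fold change is a difference of means. The range is thus no measure of the pairs alone. The log2 range over replicates had a median of 0.22 within RA_Ag1.3 and 0.17 within RA, while the median size of the fold change was 0.11. In 46 of 60 members the fold change was smaller than the range over RA arrays, and in 5 it exceeded the range in both groups. The ranges were computed for the members alone and not over all genes. Whether these medians and counts are particular to the members was therefore not tested. The highest array carried the same replicate number in both groups for 35 members (58.3%), against 50.3% of all genes and 57.5% of genes above the median probe set. Replicate 1 was that number for 17 members, among them Polr3k and Fbl, and replicate 3 for another 17, among them Utp20 and Polr3g. Among the 11441 genes above the median probe set, it was replicate 1 for 3025 and replicate 3 for 2802.

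**Figure D4:**
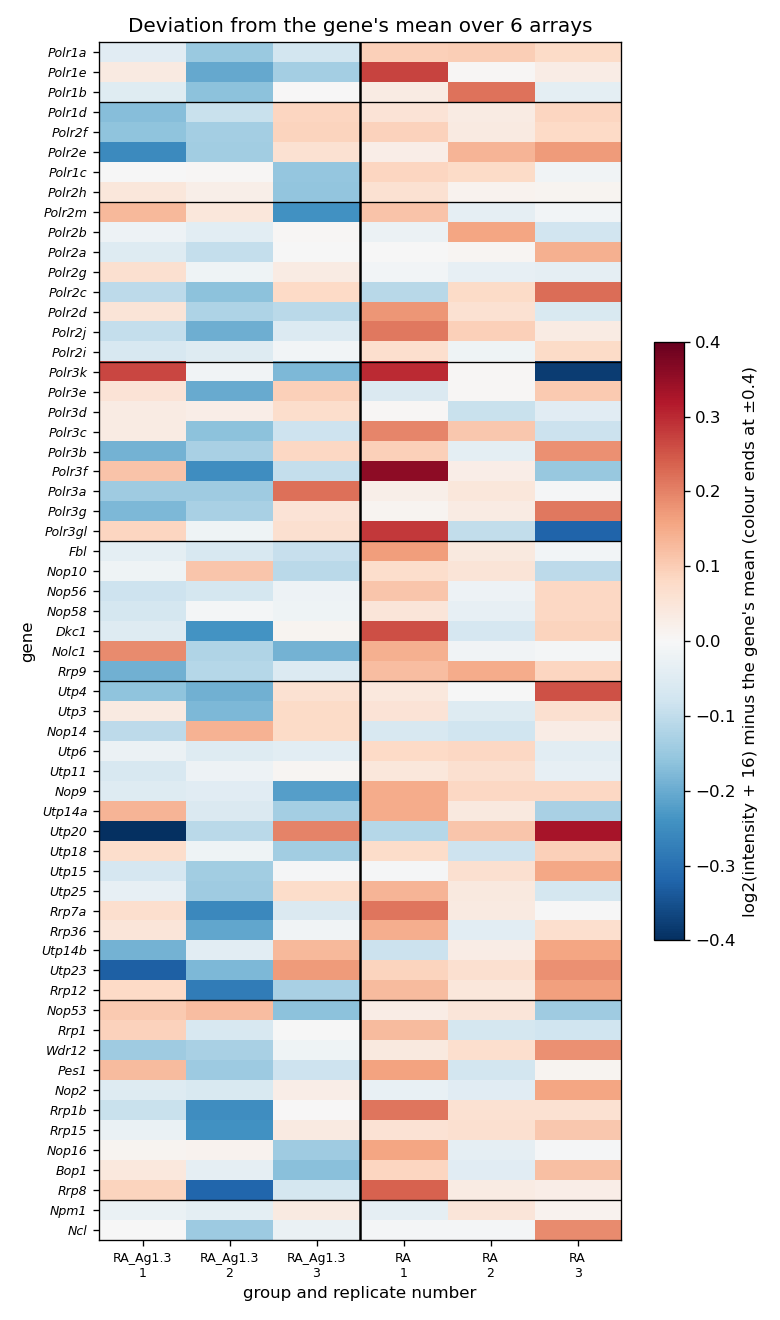
Heat map of log2(intensity + 16) minus the gene's mean over 6 arrays for each member (rows, grouped by role), with RA_Ag1.3 arrays 1 to 3 left of the black line and RA arrays 1 to 3 right of it. Blue (below the mean) is more frequent on the left and red (above it) on the right, and Utp20 and Polr3k show opposite replicate patterns that recur in both groups.

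Markers of other cells moved across the same arrays. Of 10 general neuron genes 8 rose with Ag1.3, among them Elavl4 (1.70), Stmn2 (1.55) and Ina (1.36 on the log2 scale), and 0 of 10 lay below 0, with summed intensities of 6667 to 9606 with Ag1.3 and 2237 to 3718 in RA. Of 9 genes of pluripotent cells 1 fell past the adjusted threshold and 9 of 9 lay below 0, with a median of -0.68. At an unadjusted p under 0.05 in limma's test 8 of the 9 were lower, against 7.68% of all genes. Their sums were 3405 to 7011 with Ag1.3 and 5448 to 9175 in RA. In both groups the pluripotent sum was highest and the neuron sum lowest in replicate 3. Of 9 neural progenitor genes 1, the receptor gene Notch1, rose past the adjusted threshold. Of the 9, 3 lay below 0, and the median was 0.18. The progenitor sums were 9859 to 13642 with Ag1.3 and 8694 to 13475 in RA. Of 10 endoderm genes 2, Krt8 and Sox17, fell past the adjusted threshold. Of the 10, 6 lay below 0, against 52% of all genes, and the median was -0.02. The endoderm sums were 645 to 1605 with Ag1.3 and 898 to 2052 in RA. Pou5f1, a core factor of pluripotency, fell, with 121, 209 and 316 with Ag1.3, against 209, 382 and 453 in RA, at -0.68 with adjusted p = 0.0420 in limma's test. Of these 4 lists, the endoderm gene Apoa1 alone stayed at or below 20.7, the brightest unspiked control value, on all arrays. The part of the cell mix in the members' values was not tested.

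Other genes of ribosome production, from lists chosen with earlier results of these data known, had values of a similar size. Of 97 further ribosome assembly factors measured, 0 passed and 84 lay below 0, with a median of -0.09. At an unadjusted p under 0.05 in limma's test there were 14, all of them lower. Over all genes 52% lay below 0 and 7.68% were lower at an unadjusted p under 0.05. Tcof1, treacle, a nucleolar protein needed for polymerase I transcription, read 423, 428 and 426 with Ag1.3, against 509.8, 503 and 550.3 in RA. Its log2 fold change was -0.28 with SE 0.08 and adjusted p = 0.181, and its groups did not overlap. Ftsj3, a methyltransferase of ribosomal RNA, was at -0.30 with adjusted p = 0.199. Of 11 polymerase I factors 0 passed and 9 lay below 0, with a median of -0.11, and 0 had an unadjusted p under 0.05. Taf1b, a subunit of the polymerase I selectivity factor, was at -0.22 and Ttf1, a termination factor, at -0.14.

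The lists of polymerase II and III factors lay closer to 0. Of 28 general factors of polymerase II 0 passed, 20 lay below 0 and 3 had an unadjusted p under 0.05, with a median of -0.05. Taf13 was at -0.40 with adjusted p = 0.197 and Gtf2h1 at -0.23 with adjusted p = 0.288. Of 17 polymerase III factors 0 passed, 9 lay below 0 and 2 had an unadjusted p under 0.05, with a median of -0.01. Beside these 2 lists, 52% of all genes lay below 0 and 14.9% had an unadjusted p under 0.05 in either direction. Snapc3, part of a complex at small nuclear RNA promoters, was at 0.24 and Gtf3a, which binds 5S ribosomal RNA genes, at -0.26, neither past the threshold.

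Cytosolic ribosomal protein genes, 49 in all, had 0 past the threshold, 38 below 0, 5 at an unadjusted p under 0.05 and a median of -0.03. For this and the next lists, the shares over all genes were 52% below 0 and 14.9% at an unadjusted p under 0.05. Rps4l at -0.44 (adjusted p = 0.0774) and Rpl39l at -0.60 (adjusted p = 0.132), both named for their likeness to a ribosomal protein gene, had the smallest p-values. Of the 10 Myc family genes 0 passed, 3 lay below 0 and 3 had an unadjusted p under 0.05, with a median of 0.07. Myc read 109.9, 81.3 and 89.3 with Ag1.3, against 151, 116 and 103 in RA, lower in all 3 pairs with overlapping groups. Its log2 fold change was -0.34 with SE 0.09 and adjusted p = 0.166. Mycn, the family member typical of neural progenitors, read 1375, 1135 and 879 with Ag1.3, against 1241, 1053 and 893 in RA, at 0.08 with adjusted p = 0.723. Mxi1, an antagonist of Myc, was at 0.24 with adjusted p = 0.280. Of 24 cell cycle genes 0 passed, 20 lay below 0 and 2 had an unadjusted p under 0.05, with a median of -0.08, Bub1b at -0.22 and Rrm1 at -0.20 having the smallest p-values.

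The overall level taken as equal between arrays bears on all of these small values. Hybridization spikes were brighter on Ag1.3 arrays, by 0.19 in log2 units. A shift to equal spikes moves every gene of an array alike, so the members' -0.10 relative to all genes could not change. Arrays shifted to equal spikes placed the median of all genes at -0.20 and that of the members at -0.30. On that scale 19 of 60 members (31.7%) and 15.3% of all genes were called lower. With a moderation that follows intensity and without the 21 genes at an intensity of 1 on every array, a setting chosen after seeing the data, Polr2e, Polr2j and Utp4 were called lower, which is 5% of the members against 3.14% of the genes tested. In the other 12 alternatives 0 of 60 members were called.

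**Figure D5:**
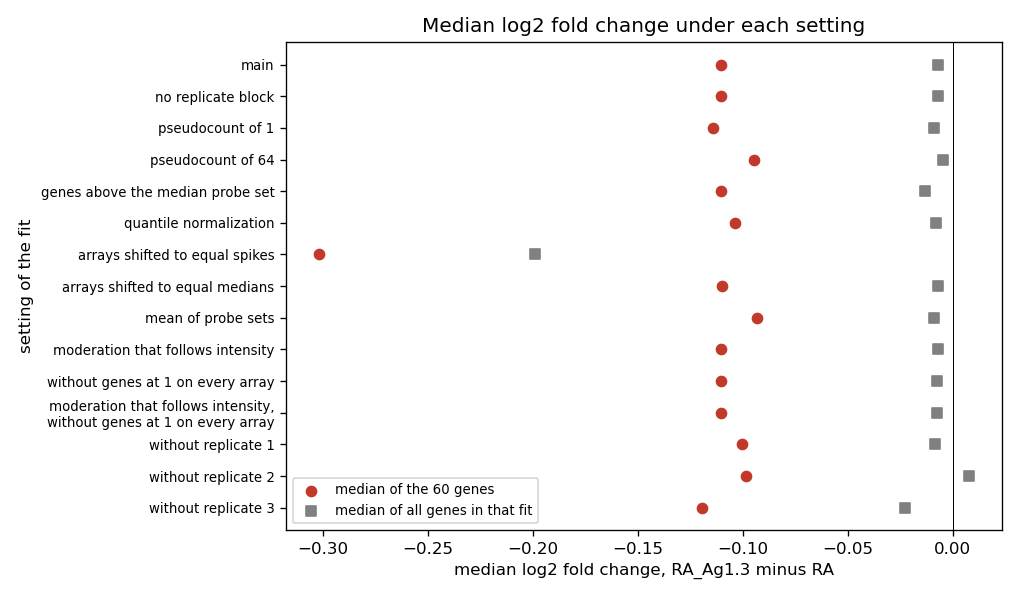
Median log2 fold change of RA_Ag1.3 over RA (x axis) for the 60 members and for all genes of the same fit under each setting (y axis). The members lie near -0.11 and all genes near 0 except where arrays are shifted to equal spikes, where both are lower, at -0.30 and -0.20.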

How the data were processed

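RNA of 6 cultures, 3 per group, was measured on 1 array each. The authors deposited linear intensities, 1 per probe set. The summary method, software and scaling were not given in the sources used here. Biotin-labelled cRNA was made from 2.5 µg total RNA with a 3' IVT kit, per the labels' protocols. Of 45101 rows, 64 were controls, 34945 had 1 gene symbol in the platform annotation, 932 had several and 9160 were not listed.

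Intensities were transformed to log2(intensity + 16) and fitted by limma 3.58.1 under R 4.3.3, using lmFit and eBayes, two-sided, with the replicate number as a block, 1 probe set per gene and Benjamini-Hochberg adjustment over 18193 genes. Fold changes are RA_Ag1.3 minus RA on that scale, which understates changes of dim genes. Deviations from group means correlated across genes at 0.54, 0.19 and 0.56 for arrays of the same number, against -0.52 to 0.07 for other numbers, and the design text states the pairing. The p-values measure the spread between 3 pairs of parallel cultures of 1 line, whose small number limits the precision.

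The members and lists were chosen with earlier results of these data known. Members are named if past the threshold, among the 8 highest or 8 lowest fold changes (7 members were above 0), among the 5 highest or lowest intensities, or if they are the 2 largest subunits of a polymerase, the paralogs Polr3g, Polr3gl, Utp14a and Utp14b, or named singly in the rule. Other members are named where a count or group needs an example, chosen after their values were seen. From each further list up to 3 members past the threshold are named, or 2 where none passed, and Mycn in addition. Sequences are from RefSeq, GRCm38.p6. Alternatives changed the block, pseudocount, filter, scaling, probe set choice, moderation and pairs included.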

Additional observations from a re-analysis of the deposited data

How the results depend on the processing

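The median log2 fold change of the 60 members lay between -0.12 and -0.09 in 13 of the 14 alternatives, and the exception was -0.30 with arrays shifted to equal spikes. Changing only the block, gene filter or moderation leaves each fold change as it was. The members' median of -0.11 could therefore not move in those alternatives. Without the replicate block, 0 members passed in limma's test, as in the paired test, and 3 had an unadjusted p under 0.05. The number of members called lower was 19 with arrays shifted to equal spikes and 3 with a moderation that follows intensity without genes at 1 on every array. Members called higher were 0 in each alternative.

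All genes called higher numbered 197 in the paired test, 79 without the replicate block, 0 and 464 at pseudocounts of 1 and 64, 497 among genes above the median probe set, 299 at equal spikes, 513 with a moderation that follows intensity and 640 when genes at 1 were also left out. All genes called lower numbered 59, and 8, 0, 355, 455, 2779, 375 and 570 under the same alternatives, 111 at equal medians and 106 without genes at 1. Without 1 of the pairs, 35 to 47 were called higher and 5 to 21 lower.

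Of 476 values of 34 named members, 444 kept sign and side of the threshold, 16 changed sign and 16 passed the threshold, 14 of them at equal spikes. Where only the block, gene filter or moderation changed, no sign could change, so the 444 include values whose sign was fixed in advance. At equal spikes 7 turned negative: Nop14 (-0.12), Nop53 (-0.15), Polr2g (-0.14), Polr3d (-0.11), Polr3gl (-0.10), Polr3k (-0.14) and Rrp1 (-0.17). With the mean of probe sets Polr3a was at 0.028 and Rrp1 at -0.015. Without 1 of the pairs, Polr3a ranged from -0.177 to 0.0297, Npm1 from -0.0393 to 0.0155, Polr3gl from -0.058 to 0.233, Polr3k from -0.0267 to 0.0899 and Rrp1 from -0.0127 to 0.0423. Polr2b lay between -0.0991 and 0.0417. None of these values that changed sign passed the threshold, and the cause was not tested.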
